A study of Rattus norvegicus with 6 samples.

Results

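The Kruppel-like factors Klf2, Klf3, Klf4, Klf7, Klf9, Klf11 and Klf13 were followed in liver sinusoidal endothelial cells held under low or high pressure. They were selected by gene symbol, which gave 7 symbols and 8 gene identifiers among the 32623 in the data, because Klf7 carried 2 identifiers. RNA sequencing covered 6 libraries of primary cells from Han Wistar rats that had been cultured in a perfused device alongside hepatocytes, hepatic macrophages and stellate cells. All libraries shared a shear stress of 1.15 dyn/cm2 and a culture time of 48 h. Of these, 3 came from 1 mmHg, the physiological pressure, and 3 from 12 mmHg, the pathological pressure. The sources used here state neither age nor sex of the rats, nor how many animals went into a library, and the labels name no genetic change.

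Kruppel-like factors are zinc finger proteins that bind GC-rich and CACCC-type DNA. In endothelium, laminar shear acts through the kinase cascade MEKK3, MEK5 and ERK5 on MEF2 proteins, which switch on Klf2 and Klf4, and these factors in turn maintain a quiescent, vasodilating and anticoagulant surface. Klf3 is mainly a repressor that recruits CtBP, Klf9, Klf11 and Klf13 belong to the group that binds the co-repressor Sin3a, and Klf7 is best known from neurons and from progenitor cells.

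Library totals ran from 8925149 to 24025406 counts, and 10234 to 17189 genes had a count. Levels of single genes are CPM, a gene's count as a share of totals scaled by the trimmed mean of M-values (TMM) and not corrected for transcript length. Summed CPM of gene lists and of mitochondrial transcripts are shares of the unscaled library totals. The TMM factors ran from 0.786 to 1.27, so such sums and single-gene CPM differ in scale. The libraries fell into 2 classes by a summed CPM of hepatocyte genes under or over 10000, a limit chosen with these data known. Physiological replicate 1 and pathological replicates 1 and 2 were poor, at 475 to 877 CPM, and physiological replicates 2 and 3 and pathological replicate 3 were rich, at 33600 to 66500 CPM. The list included Psme3, which is not specific to hepatocytes and measured 137 to 149 CPM in the poor and 71.1 to 91.5 CPM in the rich libraries. Part of the sums in the poor libraries is therefore not hepatocyte RNA. The endothelial marker Cdh5 (VE-cadherin) measured 184 to 320 CPM in all 6 libraries. Pecam1, another endothelial marker, was not matched to a symbol. Kdr (a VEGF receptor) and the sinusoidal markers Lyve1 and Stab2 were present but uneven. Lyve1 measured 41.3 to 248 CPM in the poor and 1620 to 2020 CPM in the rich libraries. The rich libraries also had fewer genes with a count, 10234 to 12833 against 13729 to 17189. Transcripts of the mitochondrial genome summed to 197000 CPM in physiological replicate 3, to 44600 and 53500 CPM in the other rich libraries and to 3880 to 13500 CPM in the poor ones. In bulk RNA, fewer cells of a type and less RNA per cell cannot be told apart.

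Start-site windows from RefSeq on GRCr8, a build that was not matched to the deposited counts, were matched for Klf3, Klf4, Klf7, Klf9 and Klf11 and not for Klf2 and Klf13. A stretch of 30 bases is shown for each, to set the binding letters named for this family and for its upstream factor beside the expression values. The capitals mark a match to CTANNNNTA with A or T at each N (the MEF2 core) for Klf4, to CACCC or its complement GGGTG (the KLF box) for Klf3, Klf7 and Klf9, and to CCGCCC, the complement of GGGCGG (the SP box), for Klf11. Klf3, chr14:43850827-43850856, minus strand, and Klf4, chr5:75078724-75078753, minus strand, lie within their genes' annotated spans, whereas Klf9, chr1:230126517-230126546, plus strand, lies upstream. Klf7 is at chr9:73020135-73020164 on the minus strand and Klf11 at chr6:47014410-47014439 on the plus strand, both within the annotated spans.
Klf3: aaaagtaaaattGGGTGgctcgttcagagc
Klf4: tgctgattgtCTATTTTTAtaagagtttac
Klf7: agggaagggaagGGGTGggggggcgagaag
Klf9: acagagttgaatCACCCtccccactgacca
Klf11: gcccgccgcccaCCGCCCacgtgcagcctc

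Each window held 300 bases, 250 before and 50 after the start, and was searched on both strands. Klf4 was the only one of the 5 with the MEF2 core, 151 bases before its start, and 3.77% of 33469 rat windows held one. The KLF box occurred 4 times in Klf3, 2 times in Klf7 and 1 time in Klf9, and in 54.9% of all windows. The SP box occurred 7 times in Klf11 and 1 time each in Klf3 and Klf7, and in 33.1% of all windows. These matches are letters in a window, not shown sites.

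No Kruppel-like factor passed the test between the pressures. By the quasi-likelihood F-test of edgeR, 0 of the 7 tested members and 0 of all 12742 tested genes (0% called) had a Benjamini-Hochberg adjusted p under 0.05. At an unadjusted p under 0.05 there were 0 members and 33 genes in all, or 0.259%. limma-voom called 0 genes at an adjusted p under 0.05, with 159 (1.25%) at an unadjusted p under 0.05, and DESeq2 called 1 gene (0.00785%), not a member. Fold changes were positive for 2 of 7 members, with a median log2 fold change of -0.06, against 52.5% positive and a median of 0.05 over all tested genes. The groups did not overlap for 1 member, Klf4, against 4.61% of all tested genes. Since separate cultures or animals are not stated for the 6 libraries, a p-value here reflects spread among samples that could be technical.

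**Figure D1:**
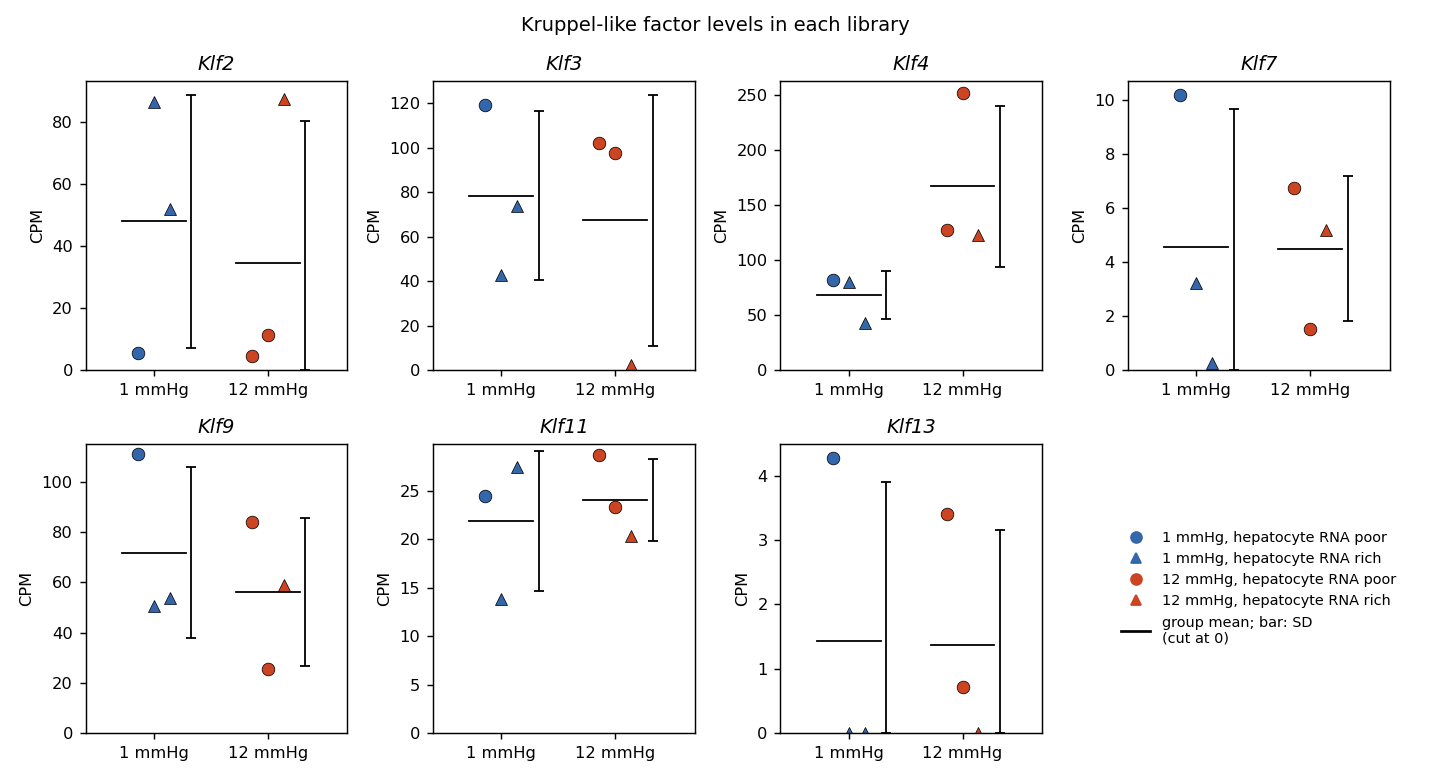
CPM of the 7 factors in each of the 6 libraries, with pressure on the horizontal axis, group means as lines and SD as bars that stop at 0. Circles are libraries poor and triangles libraries rich in hepatocyte transcripts. Only for Klf4 do all 12 mmHg points lie above all 1 mmHg points.

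Klf4, a shear-induced guardian of endothelial quiescence, was the member whose groups did not overlap. It measured 81.7, 80.1 and 42.9 CPM in physiological replicates 1, 2 and 3. It measured 127, 252 and 123 CPM in pathological replicates 1, 2 and 3. The lowest value was in physiological replicate 3, the library richest in mitochondrial transcripts, and without it the log2 fold change was 1.04. The part of RNA quality in the Klf4 values was not tested. All 3 pathological libraries lay above all 3 physiological ones, and 1.56% of tested genes did the same in this direction. Means were 68.2 ± 22 CPM (SD, n = 3) at 1 mmHg and 167 ± 73.2 CPM (SD, n = 3) at 12 mmHg. The log2 fold change was 1.29 with a standard error of 0.65 and a 95% confidence interval of -0.20 to 2.78 (edgeR adjusted p = 1, unadjusted p = 0.0804). The lowest pathological value was 1.5 times the highest physiological one, and 1.1 times with library totals alone in place of TMM. Without pathological replicate 2 the log2 fold change was 0.87.

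The order of Klf4 between the pressures within each hepatocyte class follows from groups that did not overlap, and is no separate support. In the poor libraries it was 81.7 CPM at 1 mmHg against 127 and 252 CPM at 12 mmHg. In the rich libraries it was 80.1 and 42.9 CPM at 1 mmHg against 123 CPM at 12 mmHg. Each class has a single library at one of the pressures, so these are values with no replicate check on that side. The log2 fold change within the classes was 1.20 and 0.98, as log2 ratios of class means with 1 CPM added. Expressed per summed counts of the pan-endothelial list, the groups overlapped. The log2 of that ratio was -4.37, -5.62 and -6.02 in the physiological and -2.94, -1.97 and -4.92 in the pathological libraries, a difference of means of 2.06.

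Klf2, the prototype flow-induced factor that drives nitric oxide synthase and thrombomodulin, separated the libraries by class rather than by pressure. It measured 5.46, 86.5 and 52 CPM in physiological replicates 1, 2 and 3. It measured 4.51, 11.3 and 87.3 CPM in pathological replicates 1, 2 and 3. The 3 hepatocyte-rich libraries lay at 52 to 87.3 CPM and the 3 poor ones at 4.51 to 11.3 CPM. The share of all tested genes that split by class in this way was not counted. Among 7912 genes with a mean of at least 10 CPM, 480 had a Pearson's r of at least 0.95 with Klf2. The highest library for Klf2 was 19.4 times the lowest. Counting error was small against this spread, with a 95% Poisson interval of 3.75 to 5.36 CPM for the lowest library, which covers counting error only. Group means were 48 ± 40.7 and 34.4 ± 46 CPM (SD, n = 3 each), and the log2 fold change was -0.48 (standard error 1.37, 95% confidence interval -3.63 to 2.67, edgeR adjusted p = 1).

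The negative sign of Klf2 was not kept within the classes. In the poor libraries it was 5.46 CPM at 1 mmHg against 4.51 and 11.3 CPM at 12 mmHg, with a fitted log2 fold change of 0.53. In the rich libraries it was 86.5 and 52 CPM against 87.3 CPM, with a fitted value of 0.34. With a term for hepatocyte content the value was 0.06, without physiological replicate 2 it was 0.29, and without pathological replicate 3 it was -2.59. Several other genes were high in the same 3 libraries. Kdr measured 355 to 502 CPM in the rich and 4.18 to 43.8 CPM in the poor libraries, and Lck (a lymphocyte kinase) 49.7 to 84.1 and 2.54 to 3.62 CPM. Not all endothelial markers were split by class. Tek measured 58 to 156 CPM in the rich and 53.7 to 266 CPM in the poor libraries, and Tie1 258 to 395 and 198 to 346 CPM. The lymphocyte genes Cd3e and Cd79a were at 0 in 5 of 6 libraries. The lists of other cells summed to 1110 to 1510 CPM in the rich and 417 to 699 CPM in the poor libraries for stellate cells, 902 to 1510 and 49.6 to 977 CPM for macrophages, and 18.4 to 100 and 6.55 to 25.7 CPM for cholangiocytes. Most of the stellate sum in the poor libraries came from a single gene, Reln. It held 15736 counts in physiological replicate 1 and 11901 and 9187 in pathological replicates 1 and 2. In the rich libraries Reln held 1364 and 181 counts in physiological replicates 2 and 3 and 10 in pathological replicate 3. The stellate marker Lrat measured 605 to 923 CPM in the rich and 1.12 to 8.24 CPM in the poor libraries, with its highest value in pathological replicate 3. In that library the defining markers Pdgfrb (stellate cells), Krt19 and Epcam (cholangiocytes) were at 0. The cholangiocyte keratin Krt7 was at 19.9 CPM there, its highest value. Pdgfrb was low in all libraries at 12 mmHg, at 0.501, 0.9 and 0 CPM against 4.38, 18.1 and 61.1 CPM at 1 mmHg. Its groups did not overlap, with a log2 fold change of -5.86 (edgeR unadjusted p = 0.0242), but it did not pass the test. Of 12 tested stellate genes, 9 had negative and 3 positive fold changes. Krt19 and Epcam were also low in the poor libraries, at 0.165 to 0.663 and 0.0987 to 1.23 CPM. The part of cell composition in the Klf2 values was not tested.

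The balance between Klf4 and Klf2 within a library needs no scaling factor. The log2 ratio of Klf4 to Klf2 counts, which is not corrected for transcript length, was 3.90, -0.11 and -0.28 in physiological replicates 1, 2 and 3. It was 4.82, 4.48 and 0.49 in pathological replicates 1, 2 and 3. The groups overlapped, while each pathological library lay above the physiological libraries of its own class. Means were 1.17 ± 2.37 and 3.26 ± 2.41 (SD, n = 3 each). Klf4, whose groups did not overlap, is the numerator, so the order within the classes is no separate support. Each class has a single library at one of the pressures. The ratio was chosen after its values were seen and has no test.

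**Figure D2:**
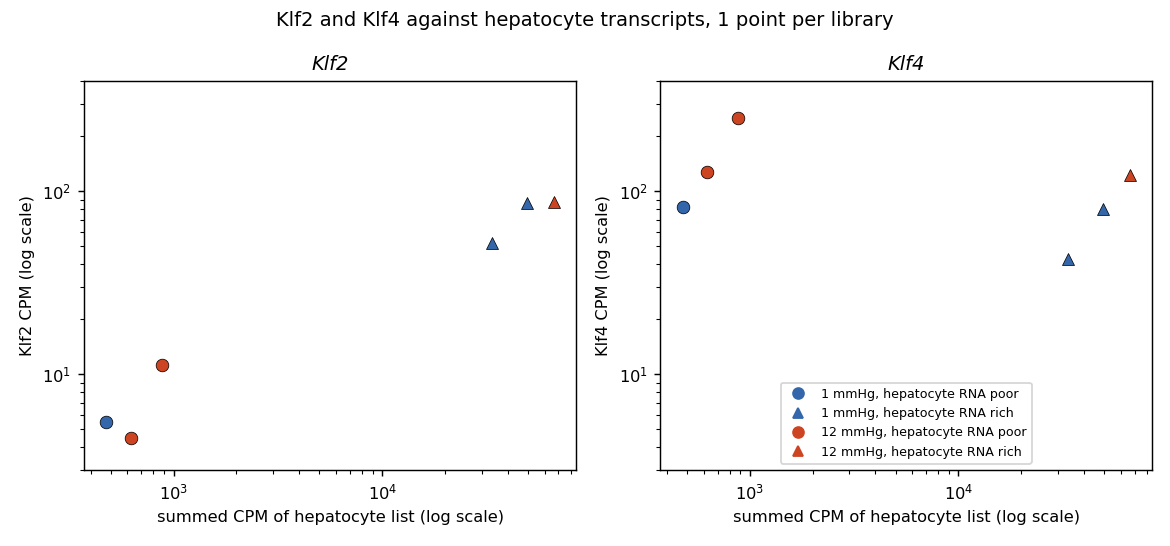
Klf2 (left) and Klf4 (right) CPM on log scales against the summed CPM of the hepatocyte list, 1 point per library, blue for 1 mmHg and red for 12 mmHg. Klf2 lies at 52 to 87.3 CPM in the 3 libraries on the right of its panel and at 4.51 to 11.3 CPM in the others, while Klf4 shows 12 mmHg above 1 mmHg on both sides. That order of Klf4 follows from groups that did not overlap.

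Klf3, the CtBP-binding repressor, was set apart by a single library. It measured 119, 43 and 73.8 CPM in the physiological libraries and 102, 97.6 and 2.37 CPM in the pathological libraries. The value of 2.37 CPM, in pathological replicate 3, came from 25 counts and had a 95% Poisson interval of 1.53 to 3.5 CPM. The groups overlapped, with a log2 fold change of -0.22 (standard error 1.16, 95% confidence interval -2.88 to 2.45, edgeR adjusted p = 1). Without pathological replicate 3 it was 0.36, with a term for hepatocyte content -2.08, and in the rich libraries alone -4.60 (edgeR adjusted p = 0.161). Pathological replicate 3 had the fewest genes with a count, 10234, and 3372 of the 12742 tested genes at 0, and the part of library complexity in the Klf3 value was not tested.

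Klf9, a factor induced by glucocorticoid and thyroid hormone, had overlapping groups. It measured 111, 50.7 and 53.9 CPM at 1 mmHg and 84.2, 25.4 and 58.9 CPM at 12 mmHg. The highest value was in physiological replicate 1 and the lowest in pathological replicate 2, both poor libraries. The log2 fold change was -0.36 (standard error 0.77, 95% confidence interval -2.13 to 1.42, edgeR adjusted p = 1), and without physiological replicate 1 it was 0.20. Among glucocorticoid-responsive genes, 6 of 12 tested had positive fold changes and 0 passed the test, with a median log2 fold change of 0.01, or -0.16 to 0.17 with 1 library left out. Errfi1 (a feedback inhibitor of EGF receptor signalling) had a log2 fold change of 0.46, and Zbtb16 (a transcriptional repressor), at 0 in 3 libraries, measured 14.7 ± 13.1 and 3.62 ± 6.28 CPM (SD, n = 3 each).

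Klf11, a TGF-beta-inducible repressor, varied least among the members. It measured 24.5, 13.8 and 27.5 CPM at 1 mmHg and 28.7, 23.3 and 20.4 CPM at 12 mmHg, and its highest library was 2.09 times its lowest. The groups overlapped, with a log2 fold change of 0.14 (standard error 0.99, 95% confidence interval -2.14 to 2.42, edgeR adjusted p = 1), an interval that includes changes of more than 4-fold in each direction. Of 12 tested early TGF-beta targets 8 had positive fold changes and 0 passed the test, with a median of 0.21 that was 1.78 without physiological replicate 1 and -0.04 without physiological replicate 3. Smad7 (the inhibitory SMAD) measured 103, 24.2 and 44.8 CPM at 1 mmHg and 158, 231 and 44.5 CPM at 12 mmHg. Id1 (a BMP-responsive inhibitor of helix-loop-helix factors) measured 15.5 ± 8.67 and 37 ± 17.9 CPM (SD, n = 3 each).

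Klf7 and Klf13 had few or no counts in part of the libraries. Klf7, counted under its main identifier, measured 10.2, 3.24 and 0.285 CPM at 1 mmHg and 6.76, 1.52 and 5.21 CPM at 12 mmHg. The value of 0.285 CPM rests on 2 counts. The other Klf7 identifier held 3.75% of the Klf7 counts and was too low to be tested, and the split between them is uncertain. The log2 fold change of Klf7 was -0.03 (95% confidence interval -4.56 to 4.50, edgeR adjusted p = 1). Its sign changed with the scaling, from -0.03 with TMM to 0.02 with DESeq2 size factors.

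Klf13 was detected in the 3 hepatocyte-poor libraries alone. Its level was 4.28 CPM in physiological replicate 1, with 3.4 and 0.711 CPM in pathological replicates 1 and 2. It was at 0 in physiological replicates 2 and 3 and in pathological replicate 3, where 3 counts would have been 0.174, 0.428 and 0.284 CPM. The 3 libraries at 0 were thus those in which Klf2 was high. They also had the most tested genes at 0, with 1363 and 3011 in physiological replicates 2 and 3 and 3372 in pathological replicate 3. Physiological replicate 1 had 125 such genes, and pathological replicates 1 and 2 had 127 and 820. The part of library complexity in the Klf13 values was not tested. The log2 fold change was -0.06 (95% confidence interval -6.43 to 6.30, edgeR adjusted p = 1).

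Physiological replicate 1 and pathological replicate 1, both poor in hepatocyte transcripts, resembled each other in these genes. The pathological value was 0.663 to 0.864 times the physiological one for Klf2, Klf3, Klf7, Klf9 and Klf13. It was 1.17 times for Klf11 and 1.56 times for Klf4. Their sample numbers are 2 and 3. The other numbers are 11 and 22 at 1 mmHg and 9 and 23 at 12 mmHg, so neighbouring numbers fall on opposite pressures, although no label calls them pairs. Klf4 was higher at 12 mmHg in all 3 sets of neighbours, at 127 against 81.7, 252 against 80.1 and 123 against 42.9 CPM. Because its groups did not overlap, any pairing across the pressures would give this, so it is no separate support.

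**Figure D3:**
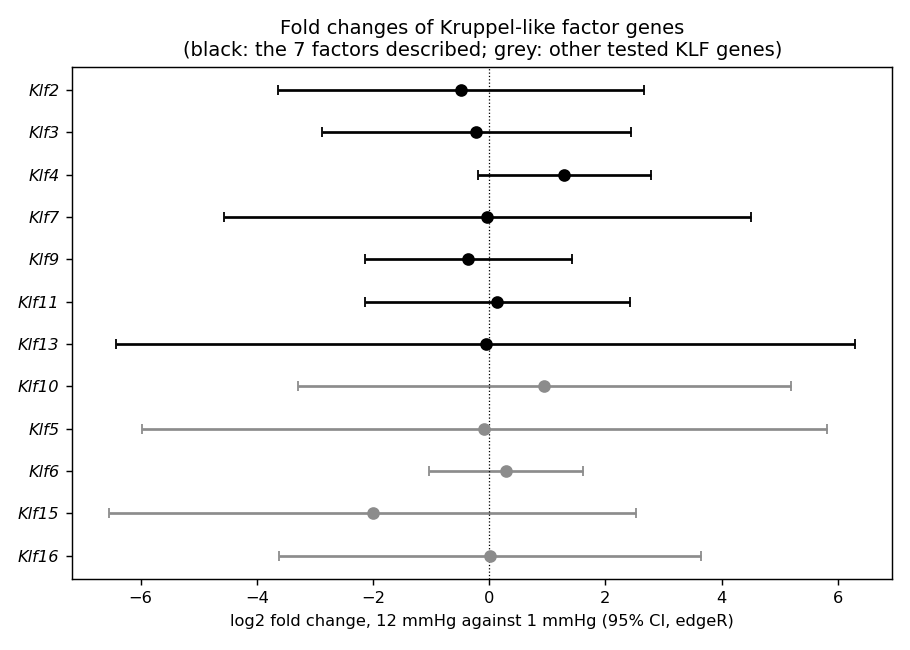
Log2 fold changes of 12 mmHg against 1 mmHg with 95% confidence intervals from edgeR, for the 7 factors (black) and for 5 other tested KLF genes (grey). All intervals include 0, and that of Klf4, from -0.20 to 2.78, has the lower end nearest to 0.

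Of the other KLF genes, 5 were tested and 0 passed. Klf6, an injury-induced factor, measured 189, 112 and 140 CPM at 1 mmHg and 211, 205 and 123 CPM at 12 mmHg, with a log2 fold change of 0.29 and overlapping groups. Klf10, also TGF-beta-inducible, measured 29.1, 18 and 0.143 CPM at 1 mmHg and 24.9, 65.7 and 0.663 CPM at 12 mmHg, so that the third library of each pressure was nearly without it. Klf15, a glucocorticoid-responsive metabolic factor, measured 6.78, 2.37 and 17.7 CPM at 1 mmHg and 4.61, 1.75 and 0.284 CPM at 12 mmHg. Klf5 was at 0 in physiological replicate 3 and pathological replicate 3, with a log2 fold change of -0.09, and that of Klf16 was 0.02. Klf1, Klf8, Klf12 and Klf14 had few counts and were not tested, and Klf17 had none. Of the related SP genes, 4 were tested, with 3 positive, 0 past the test and a median of 0.21 that was 1.39 without physiological replicate 1 and -0.34 without pathological replicate 1. Sp3 ranged from 0 to 72.6 CPM and Sp4 from 0.19 to 15.3 CPM, with overlapping groups.

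The cascade that switches on Klf2 and Klf4 gave no call. Of 8 tested genes of the ERK5-MEF2 pathway 4 had fold changes above 0 and 4 below, and their median was 0.10, or 0.06 to 0.35 with 1 library left out. Mapk7, which encodes ERK5, measured 34.2, 36.3 and 41.3 CPM at 1 mmHg and 33.2, 26.8 and 4.64 CPM at 12 mmHg. All pathological values of Mapk7 lay below all physiological ones, as for 3.05% of tested genes in this direction, and the log2 fold change was -0.79 (95% confidence interval -3.18 to 1.60, edgeR adjusted p = 1). The difference between the nearest libraries, 33.2 and 34.2 CPM, was small. Mef2c, an endothelial MEF2 gene, measured 18.4 to 53.1 CPM in the hepatocyte-rich and 2.47 to 9.25 CPM in the poor libraries. Mef2a and Mef2d ran the other way, at 108 to 136 and 38.2 to 50.8 CPM in the poor libraries and 0.57 to 9.14 and 0.379 to 4.92 CPM in the rich ones. These 3 genes were named after their values were seen. Mef2b, with the smallest p of the list, was at 0 in all rich libraries.

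Of 7 tested genes of the CCM complex, which restrains MEKK3 in endothelium, 5 had positive fold changes and 0 passed, with a median of 0.23 that was 0.04 without pathological replicate 2 and 0.71 without pathological replicate 3. Ccm2 measured 60.2, 70.8 and 52.5 CPM at 1 mmHg and 66.4, 141 and 58.9 CPM at 12 mmHg, and Krit1 30.7 ± 30.6 and 55.8 ± 33.3 CPM (SD, n = 3 each).

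Partners of the repressor members gave no call either. Of 14 tested co-repressor genes 9 had positive fold changes, with a median of 0.07 that was -0.03 without pathological replicate 3 and 0.30 without pathological replicate 2. Rbbp7, a histone-binding subunit of the Sin3 complex, measured 194, 157 and 79.1 CPM at 1 mmHg and 223, 407 and 207 CPM at 12 mmHg. Its groups did not overlap, and its log2 fold change was 0.96 (95% confidence interval -0.49 to 2.41, edgeR adjusted p = 1). Groups without overlap occurred in 7.14% of the co-repressor genes and in 4.61% of all tested genes. Sin3b, a scaffold of that complex, measured 97.9 ± 38.9 and 146 ± 38.4 CPM (SD, n = 3 each). Of 8 genes for coactivators and for degradation of these factors 7 had positive fold changes, with a median of 0.30 and 0 past the test. Kat2b, an acetyltransferase, measured 12.6 ± 13 and 22.9 ± 24.7 CPM, and Wwp1, a ubiquitin ligase of KLF proteins, 29.3 ± 25.5 and 42 ± 23.7 CPM (SD, n = 3 each). The median of these 8 genes was 1.27 without physiological replicate 1 and -0.05 without pathological replicate 1.

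Of the genes that KLF2 and KLF4 are known to induce, 0 passed the test. Fold changes lay above 0 for 6 and below 0 for 12 of the 18 tested, and their median was -0.21 against 0.05 for all genes. It was -0.93 without pathological replicate 3 and -0.10 without pathological replicate 1. Nos3, which makes nitric oxide in endothelium, stood at 48.6, 72.9 and 24.1 CPM at 1 mmHg and 7.33, 4.78 and 70.9 CPM at 12 mmHg. The lowest values of Nos3 lay in pathological replicates 1 and 2, and its groups overlapped. Thbd (thrombomodulin) measured 194, 9.78 and 6.41 CPM at 1 mmHg and 202, 5.83 and 34.3 CPM at 12 mmHg. Thbd was highest in replicate 1 of each pressure, where Klf2 was lowest. Hmox1 (heme oxygenase) had a log2 fold change of 1.34, with 11800 and 708 CPM in pathological replicates 2 and 3, and Cd59 (a complement inhibitor) of -0.62.

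Of 16 tested genes that these factors are known to repress, 3 lay above 0 and 13 below, with 0 past the test and a median log2 fold change of -0.51. That median was -0.05 without physiological replicate 1 and -0.96 without pathological replicate 3. Ccl2, a monocyte chemokine, measured 111, 214 and 177 CPM at 1 mmHg and 43.3, 77 and 79.2 CPM at 12 mmHg. It was the gene of this list whose groups did not overlap, with a log2 fold change of -1.33 (95% confidence interval -2.77 to 0.11, edgeR adjusted p = 1). That is 6.25% of the list, against 4.61% of all tested genes. Vegfa, an endothelial growth factor, measured 97.2, 25.7 and 29.2 CPM at 1 mmHg and 119, 254 and 20.9 CPM at 12 mmHg. Pan-endothelial markers, which share Kdr with this list and Nos3 and Tek with the induced one, had 19 of 22 negative fold changes and a median of -0.77, which was -2.75 without pathological replicate 3 and -0.27 without physiological replicate 2. Among them stood Myct1 at 41.7 ± 18.8 and 12.3 ± 2.6 CPM and Sox17 at 28.2 ± 17.1 and 9.01 ± 6.25 CPM (SD, n = 3 each). Of 20 sinusoidal markers 16 were negative, with a median of -0.64 that was -1.83 without pathological replicate 3, -0.22 without pathological replicate 2 and 0.38 in the rich libraries alone. Bmp2 measured 99.7 ± 35.2 and 36.3 ± 7.4 CPM and Rspo3 19.9 ± 15.5 and 1.46 ± 2.24 CPM (SD, n = 3 each), with groups that did not overlap. Groups without overlap, all lower at 12 mmHg, made up 9.09% of the pan-endothelial and 10% of the sinusoidal list, against 4.61% of all tested genes in either direction. The part of endothelial RNA content in these medians and values was not tested.

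Klf4 also belongs to the genes that react within minutes to stimulation and handling. Of 26 tested immediate early genes 21 had positive fold changes and 0 passed, with a median of 0.65, which was 0.42 when pathological replicate 2 was left out and 0.81 when physiological replicate 3 was. The groups of Maff, a small MAF factor, did not overlap, at 255, 286 and 307 CPM against 361, 662 and 409 CPM. Such groups occurred in 3.85% of this list and in 4.61% of all tested genes. Gadd45b (a stress sensor) measured 117 ± 24 and 274 ± 242 CPM and Btg2 (an antiproliferative gene) 118 ± 69.5 and 258 ± 129 CPM (SD, n = 3 each). Like Klf4, Maff and Gadd45b were highest in pathological replicate 2. The part of this early response in the Klf4 values was not tested.

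**Figure D4:**
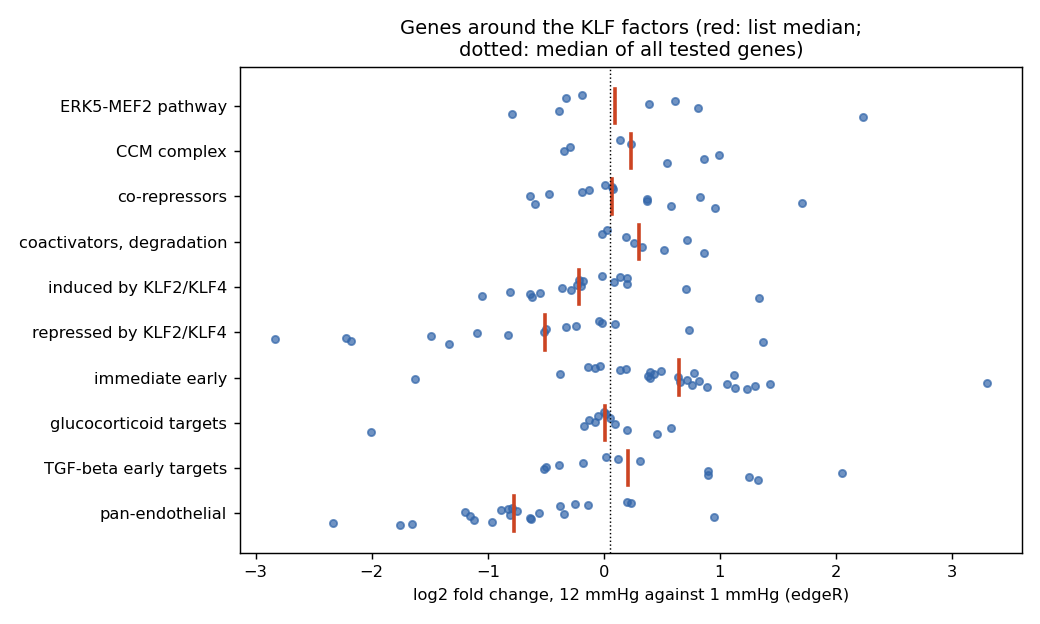
Log2 fold changes of single genes (points) in 10 lists around the KLF factors, on the horizontal axis, with the list median in red and the median of all tested genes, 0.05, dotted. The medians run from -0.77 for the pan-endothelial to 0.65 for the immediate early list, and 0 of the points passed the test.

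The members did not share a pattern over the 6 libraries. Pearson's r of log2 (CPM + 1) between pairs of members ran from -0.94 for Klf2 and Klf13 to 0.69 for Klf7 and Klf9, and Klf2 and Klf4 had an r of -0.37. These are descriptions over 6 libraries that differ in depth and cell content. The genes most like Klf2 were Pgm2, Synm and Sept4, with r from 0.996 to 0.998, and those most like Klf3 were Dennd4a, Letm1 and Ehmt1, with r from 0.997 to 0.999. Such values are common here, as 480 of 7912 candidate genes had an r of at least 0.95 with Klf2 and 450 with Klf3. For Klf4 there were 11, led by Tfpt, Rbbp7 and Keap1 with r from 0.973 to 0.977. For Klf9 and Klf11 there were 8 each, led by Hist1h1c, Snx1 and Sash1 (0.974 to 0.98) and by Taf13, Mavs and Exoc3 (0.967 to 0.969). Klf7 was most like Atl3, Dag1 and Ctgf (0.99 to 0.997), and Klf13 most like Sh3pxd2b, Pde4b and Itgad (0.996 to 0.999).

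**Figure D5:**
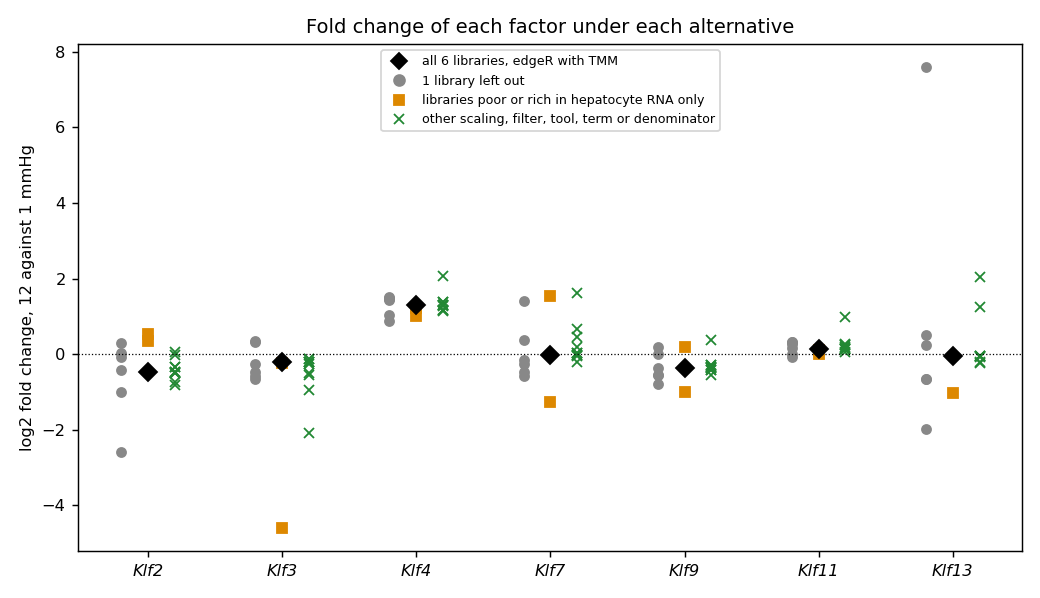
Log2 fold change of each factor (vertical axis) with all 6 libraries (diamonds), with 1 library left out (grey circles), within the hepatocyte classes (orange squares) and under other choices (green crosses). Klf4 stays above 0 throughout, from 0.87 to 2.06, while each of the other factors has values on both sides of 0.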

How the data were processed

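The authors deposited expected counts per gene for each of the 6 libraries, estimated reads before normalization, per the file headers. The submitters' processing notes list the tools STAR, RSEM and limma. Tool versions, annotation, strandedness and genome build were not given in the sources used here. Genes with near-identical copies, and overlapping or antisense genes, are therefore uncertain.

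Expected counts were rounded and tested with edgeR 4.0.16 in R 4.3.3 (quasi-likelihood, TMM, filterByExpr, no covariate, two-sided), keeping 12742 of 32623 genes, over which Benjamini-Hochberg adjustment was made at a threshold of 0.05. Standard errors were derived from the edgeR F statistic, as the absolute log2 fold change divided by the square root of F. Confidence intervals were built on these errors. Both draw on dispersion estimated with information from all genes, so they are not the spread of a single gene alone. Replicates were numbered in deposition order, and the pressure was taken from the labels. CPM are not per transcript length, so levels of different genes were not ranked. The Klf4 to Klf2 ratio and the ratios to the pan-endothelial sum were compared only between libraries. Members, the 20 gene lists and the class limit were chosen with earlier results of these data known. Of 291 list symbols 7 were not matched. Named genes were the members, other KLF genes, fixed markers, and the 3 genes most like each member by Pearson's r at a mean of at least 10 CPM. The 2 genes with the smallest unadjusted p were also named for each list, except the lists of non-endothelial cells. Others, such as the Klf4 to Klf2 ratio, Mef2a, Mef2c, Mef2d, Maff, Tek and Tie1, were chosen after their values were seen. Alternatives used limma 3.58.1 and DESeq2 1.42.0. The edgeR script was tested on simulated data with known changes. At a dispersion of 0.05 it called 100 of 100 changes of 4-fold and 100 of 100 of 16-fold. At a dispersion of 1 it called 0 of 100 changes of 4-fold and 2 of 100 of 16-fold. The biological coefficient of variation of these data, the square root of the dispersion, was 1.39. The absence of calls therefore cannot be read as absence of change. No 2 libraries agreed within sampling noise (chi-square per degree of freedom at least 74.9).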

Additional observations from a re-analysis of the deposited data

How the results depend on the processing

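Klf4 kept its positive sign in all 18 alternatives, and 0 of the 117 member fits that gave a p-value passed an adjusted p of 0.05. For a gene whose groups did not overlap, the sign is nearly fixed when libraries are left out or split by class. The pan-endothelial ratio gives no p-value, and Klf13 could not be given by it, in the rich libraries or with the CPM filter. With 1 library left out, log2 fold changes ran from 0.87 to 1.52 for Klf4, from -2.59 to 0.29 for Klf2, from -0.65 to 0.36 for Klf3, from -0.59 to 1.41 for Klf7, from -0.79 to 0.20 for Klf9, from -0.07 to 0.33 for Klf11 and from -1.99 to 7.60 for Klf13, whose upper value is a fit with every physiological library at 0. The sign of Klf2 was reversed with a term for hepatocyte content (0.06) and in the poor (0.53) and rich libraries (0.34). That of Klf7 was reversed with DESeq2 size factors (0.02), DESeq2 (0.02), limma-voom (0.67), the hepatocyte term (0.20), the rich libraries (1.55) and per pan-endothelial sum (1.62), that of Klf9 in the rich libraries (0.19) and per pan-endothelial sum (0.37), and that of Klf13 with limma-voom (1.26). The cause was not tested. Calls over all genes were 1 with DESeq2 and 244 in the rich libraries, where 1 pathological library is assumed to vary like the 2 physiological ones, and 0 in the other alternatives. In the fit of the rich libraries the median of all genes was -0.58, and with DESeq2 size factors 0.15. A replicate block of neighbouring sample numbers, chosen after seeing the data and not stated as a pairing by any label, gave 1.27 for Klf4, 0 calls over all genes, and reversed signs for Klf7 (0.45) and Klf13 (2.04). In the smallest library, of 8925149 counts, 3 counts correspond to 0.428 CPM.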
